A study of Mus musculus with 199 samples.

Results

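The bulk RNA of whole spheroids from 4 mouse small cell lung cancer lines, named KP1, KP2, KP3 and KP5, is described here. These are the 4 of 199 libraries in the series that are labelled as bulk, and they were chosen by that label alone, with 1 library per line and no replicate. By genotype, KP1 is Rb1-/-Trp53-/-, KP2 is Rb1-/-Trp53-/-Ptch1+/lacz, KP3 is Rb1-/-Trp53-/-Axin2+/lacz and KP5 is Rb1-/-Trp53-/- BAT-GAL, so all lines share the loss of Rb1 and Trp53. The labels name explanted small cell lung cancer as the source and give no age, passage or number of animals. Total RNA (RNeasy, 500 ng) was selected with oligo dT and made into libraries with the NEB Next Ultra RNA kit. The other libraries of the series hold 10 captured cells or pooled material and serve here only for values set beside those of KP1.

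Small cell lung cancer is a neuroendocrine tumour: its cells make granins, peptide-processing enzymes and synaptic vesicle proteins under transcription factors such as Insm1. In mice it is modelled by deleting Rb1 and Trp53, and gains of the Mycl and Nfib genes recur in such tumours. Rb1 holds back entry into the cell cycle and Trp53 encodes the p53 stress response factor. The extra alleles are reporters: lacZ placed in Ptch1, the Hedgehog receptor and target gene, lacZ placed in Axin2, a Wnt target gene, and BAT-GAL, a lacZ transgene that responds to beta-catenin and TCF. The lines thus differ in genotype, in culture and in library at once, and these cannot be told apart in the comparisons that follow.

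The libraries held 17266200 (KP1), 42447973 (KP2), 37844626 (KP3) and 30356824 (KP5) counts over 31581 genes. Levels are given in CPM, counts per 1000000 gene counts, with the 92 ERCC spike-in rows left out. Between 9665 and 9945 genes reached 10 CPM in each line. At 10 CPM, the exact Poisson 95% interval ran from 8.58 to 11.6 CPM in KP1, the shallowest library, and from 9.06 to 11.0 CPM in KP2, the deepest. By a one-sided limit, a count of 0 allows a level of up to 3 counts, which is 0.174 CPM in KP1, 0.0707 CPM in KP2, 0.0793 CPM in KP3 and 0.0988 CPM in KP5. These intervals and limits cover counting error only, so the spread between cultures of a line is unknown and no test was made. A further feature of the libraries is that Noct and Slc38a6 took 6.74% of all gene counts in KP3, against 1.51% in KP1, 1.48% in KP5 and 0.107% in KP2. Whether these counts reflect expression or the assignment of reads was not tested.

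All 4 lines carried the neuroendocrine profile that the tissue label implies. Each of the 11 neuroendocrine markers reached 10 CPM in each line, and their summed level ran from 3913 CPM in KP5 to 4381 CPM in KP1. Markers of most other cells were low. Summed over 8 genes each, macrophage and myeloid markers stayed at or below 3.02 CPM and T, B and NK cell markers at or below 1.5 CPM in every line. Hepatocyte markers summed to at most 8.08 CPM and erythrocyte markers to at most 0.619 CPM. Of 8 fibroblast markers, Col3a1 was at 0 in all lines, and the summed level (328, 54.0, 152 and 1.81 CPM in KP1, KP2, KP3 and KP5) was mostly Pdgfra. Of 8 endothelial markers Vwf alone reached 10 CPM, and in KP5 only, where the summed level was 296 CPM against 10.1 to 13.1 CPM. Club and ciliated cell markers summed to at most 3.58 CPM and tuft cell markers to at most 8.41 CPM. Alveolar type II markers summed to 105 to 134 CPM, mostly Abca3. Sftpc, a surfactant protein gene, was at 6.49, 22.3, 10.6 and 16.0 CPM in KP1, KP2, KP3 and KP5, and Sftpa1 was at 0 in all lines. In bulk RNA, fewer cells of a kind and less RNA per cell cannot be told apart, which holds for every level below.

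A gene was counted as setting a line apart when its log2(CPM + 1) lay at least 3, an 8-fold step on that scale, beyond the nearest of the other 3 lines. A high gene needed 10 CPM in the line itself and a low gene 10 CPM in each of the others. Of 10968 genes with 10 CPM in any line, 99 (0.903%) were set apart high and 58 (0.529%) low in KP5. KP2 had 37 high genes (0.337%) and 34 low genes (0.31%). In KP3, 24 genes (0.219%) were high and 2 (0.0182%) were low, and in KP1, 15 (0.137%) were high and 9 (0.0821%) were low. KP5 therefore had more such genes than the other lines, in both directions. In all, 1012 genes (9.23%) differed 8-fold between their highest and lowest line, while 6763 stayed within a 2-fold range.

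**Figure D1:**
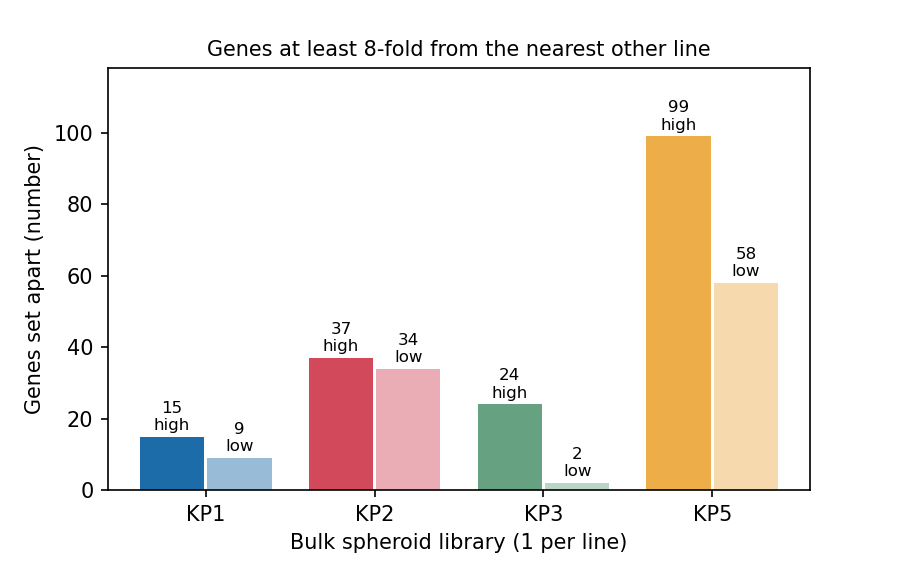
Number of genes (vertical axis) set apart by at least 8-fold on the log2(CPM + 1) scale from the nearest other line, for the 1 bulk library of each line. Dark bars are high genes and pale bars low genes, and KP5 has the tallest bars with 99 high and 58 low genes.

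KP1 and KP3 were the closest lines. Across the 10968 genes, which are not independent replicates, the Spearman correlation of their levels was 0.943, and 94 of 10292 genes (0.913%) differed 8-fold between them. The other 5 couples had correlations from 0.805 to 0.870. KP1 and KP5 lay farthest apart, with 596 of 10586 genes (5.63%) at 8-fold. KP2 differed 8-fold from KP1 in 335 of 10422 genes (3.21%), from KP3 in 355 of 10424 (3.41%) and from KP5 in 422 of 10344 (4.08%). KP3 and KP5 differed in 471 of 10520 genes (4.48%).

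KP5 was marked by epithelial genes. Epithelial cells are held together by E-cadherin and claudins, carry simple keratins, and use Grhl2, Esrp1 and Esrp2 to keep this state, while the factors Zeb1, Zeb2 and Twist1 repress it. Of 26 listed epithelial genes, 23 reached 10 CPM in any line, and KP5 had the highest level of 20 of these. All 23 were at 10 CPM or more in KP5, against 16 in KP3, 11 in KP1 and 7 in KP2. The difference of KP5 from the median of the other lines had a median of 4.22 on the log2(CPM + 1) scale over the list, against -0.01 over all genes tested. In KP1 that median was -0.79, in KP2 -2.67 and in KP3 0.79, so the list ordered the lines KP5, KP3, KP1 and KP2. Some of the 23 genes, among them Cdh1, Cldn6, Grhl2, Esrp2, Krt19 and Rab25, reached 10 CPM in KP5 alone. The counts and medians of the list thus rest partly on genes kept because KP5 was high.

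Cdh1, the gene of E-cadherin (chromosome 8, 106603351 to 106670246), was at 717 CPM in KP5, 3.77 CPM in KP2, 0.132 CPM in KP3 and 0 in KP1. No other named gene lay farther from the nearest line in KP5, at 7.23 on the log2(CPM + 1) scale. Claudin genes followed the same order at the top: Cldn6 (chromosome 17, 23679365 to 23682446) was at 47.6 CPM in KP5 and at 0 in the other 3 lines. Cldn7 had 113 CPM in KP5, 10.7 CPM in KP3, 0.848 CPM in KP2 and 0.405 CPM in KP1. Grhl2, a transcription factor that activates Cdh1 and claudin genes, was at 125 CPM in KP5 and at 2.43, 4.31 and 1.69 CPM in KP1, KP2 and KP3. The splicing regulator Esrp2 had 111 CPM in KP5, 5.67 CPM in KP3, 0.913 CPM in KP2 and 0.119 CPM in KP1. Among keratins, Krt7 was at 376 CPM in KP5 and at 32.3, 15.9 and 23.4 CPM in KP1, KP2 and KP3. Krt19 had 18.4 CPM in KP5 and at most 0.898 CPM elsewhere. These 7 epithelial genes, 7 of the 23, met the rule for KP5, where 0.903% of all genes tested did.

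Some epithelial genes were high in KP3 as well as KP5. Esrp1, the partner of Esrp2, had 308 CPM in KP5 and 69.3 CPM in KP3, but 1.86 CPM in KP2 and 0 in KP1. Krt8 was at 214 and 83.8 CPM in KP5 and KP3 and at 7.76 and 3.25 CPM in KP1 and KP2. St14, a membrane protease, stood at 103 and 27.6 CPM against 1.16 and 1.53 CPM, and its inhibitor Spint1 at 61.7 and 23.1 CPM against 1.04 and 0.613 CPM, in the same order of lines. These belong to 15 genes (0.137%) for which KP3 and KP5 both lay 8-fold above KP1 and KP2. The receptor tyrosine kinase gene Ret is another, with 204 CPM in KP5, 53 CPM in KP3, 3.94 CPM in KP1 and 4.55 CPM in KP2. Epcam, a surface protein of epithelial cells, had 468, 70.6, 12.6 and 9.23 CPM in KP5, KP3, KP1 and KP2.

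Not every epithelial gene followed. Tjp1, a tight junction scaffold, was lowest in KP5, with 90.6 CPM against 272, 133 and 189.9 CPM in KP1, KP2 and KP3. Krt18 was at 120.5 and 119 CPM in KP1 and KP3, 38.9 CPM in KP5 and 13.2 CPM in KP2. Jup, which encodes plakoglobin, stayed within 108 to 187 CPM. The tight junction genes Ocln and Cldn3 separated KP2 instead. Ocln had 0.848 CPM in KP2 and 31.3 to 57.2 CPM elsewhere, and Cldn3 had 1.72 CPM in KP2 and 27.4 to 60.6 CPM elsewhere.

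The proximal promoters of 4 epithelial genes are shown because these genes were higher together in KP5 and because their windows hold the E-box CACCTG, letters that Zeb and Snail family factors are known to bind. On the other strand the motif reads CAGGTG, and it was searched in both. The sequences are the 250 bases before the start site from RefSeq on GRCm38.p6, 5′ to 3′ on the gene's strand, with the E-box in capitals. They lie at chr17:87635729-87635978 (Epcam, + strand), chr17:23679115-23679364 (Cldn6, + strand), chr11:69965171-69965420 (Cldn7, + strand) and chr3:88548280-88548529 (Rab25, - strand). Cldn7 has another start site, whose window of 300 bases (chr11:69964529-69964828) holds 0 E-boxes and is not shown.
Epcam: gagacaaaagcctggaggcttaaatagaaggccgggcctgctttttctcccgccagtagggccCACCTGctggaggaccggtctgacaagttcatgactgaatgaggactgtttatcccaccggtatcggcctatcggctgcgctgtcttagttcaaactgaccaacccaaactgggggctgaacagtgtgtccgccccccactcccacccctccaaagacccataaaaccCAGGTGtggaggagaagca
Cldn6: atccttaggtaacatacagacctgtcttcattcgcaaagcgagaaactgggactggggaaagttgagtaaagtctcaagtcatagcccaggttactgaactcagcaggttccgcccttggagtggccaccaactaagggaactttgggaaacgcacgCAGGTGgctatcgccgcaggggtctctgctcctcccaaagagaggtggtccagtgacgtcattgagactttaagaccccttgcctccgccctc
Cldn7: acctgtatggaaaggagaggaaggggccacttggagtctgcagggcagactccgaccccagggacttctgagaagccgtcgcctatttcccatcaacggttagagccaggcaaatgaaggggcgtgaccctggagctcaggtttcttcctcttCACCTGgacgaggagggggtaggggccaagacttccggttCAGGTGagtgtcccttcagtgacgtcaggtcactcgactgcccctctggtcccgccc
Rab25: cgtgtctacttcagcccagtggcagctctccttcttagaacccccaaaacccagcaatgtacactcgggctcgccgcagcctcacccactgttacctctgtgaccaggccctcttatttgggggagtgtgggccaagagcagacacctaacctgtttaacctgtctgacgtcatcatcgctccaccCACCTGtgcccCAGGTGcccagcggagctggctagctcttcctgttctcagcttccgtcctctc
Rab25, a small GTPase of epithelial recycling endosomes, had 41.5 CPM in KP5, 8.32 CPM in KP3, 0.306 CPM in KP2 and 0 in KP1. Windows of 300 bases, with the 50 bases after the start, were found for 18 of the 26 listed epithelial genes, and in 13 of these (72.2%) at least 1 window held the E-box on either strand. Cdh1, Grhl2, Esrp2 and Krt19, which met the rule for KP5, had no window. Genes with the E-box included Krt18, Ocln and Cldn3, which did not follow the pattern of KP5. Spint1, high in KP5, lacked it, as did Tjp1, which was lowest there. The same held for 26 of the 58 genes set apart high in KP5 that have a window (44.8%) and for 3612 of all 16226 protein-coding genes with a window (22.3%). The motif was picked after the levels were seen, and base composition, which differs between promoters, was not tested for its part in these shares. A match of letters does not show binding.

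Some mesenchymal genes were low in KP5, and 1 of the list, Zeb1, met the rule there. Of 29 genes listed, 10 reached 10 CPM in any line and 7 of these had an 8-fold range, against 9.23% of all genes tested. The median difference of KP5 from the median of the other lines was -1.40 on the log2(CPM + 1) scale. Zeb1 (a repressor of Cdh1) was at 1.59 CPM in KP5 against 166, 134 and 42.3 CPM in KP1, KP2 and KP3. Its relative Zeb2 had 1.12 CPM in KP5 against 15.9, 33.2 and 17.9 CPM, which put it just short of the rule at 2.99. Twist1 stood at 3.36 CPM against 45.1, 30.6 and 36.0 CPM. All 3 were lowest in KP5, but the order of the other lines differed by gene. Snai3, a gene of the Snail family, was set apart high in KP5, with 19.9 CPM against 0.347, 0.377 and 0.951 CPM in KP1, KP2 and KP3. The adhesion receptor Cd44 was at 0 in KP5 and 1.98 CPM in KP2, with 20.2 and 17.5 CPM in KP1 and KP3.

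N-cadherin behaved differently. Cdh2 (chromosome 18, 16588877 to 16809246) was at 5.76 CPM in KP3 against 175, 269 and 200.3 CPM in KP1, KP2 and KP5, and it was 1 of the 2 low genes of KP3. KP5 was thus the line with high levels of both cadherin genes, and KP3 had low levels of both. Anxa2, a membrane-binding protein on the mesenchymal list, was highest in KP5, with 20.1 CPM against 0.99 to 3.24 CPM. Vim, the intermediate filament vimentin, had 15.4 CPM in KP3 and at most 2.84 CPM elsewhere.

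**Figure D2:**
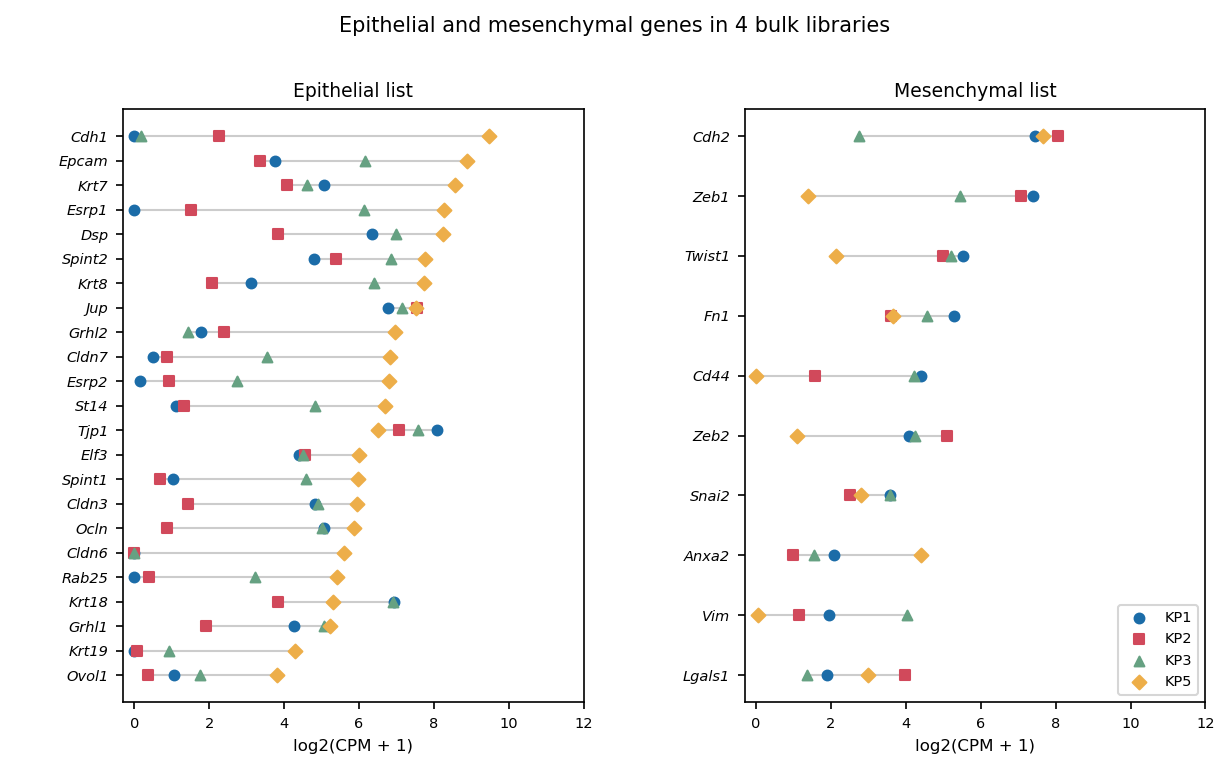
Levels as log2(CPM + 1) (horizontal axis) of the 23 epithelial and 10 mesenchymal genes that reached 10 CPM in any line, with 1 symbol per bulk library and a grey line over the range. KP5 is rightmost for 20 of 23 epithelial genes, and Zeb1, Twist1, Zeb2, Cd44 and Vim have their lowest value in KP5.

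Hox genes were low in KP5 and ordered the other lines differently by cluster. They encode the transcription factors that give cells their position along the body axis and sit in clusters of neighbouring genes, so members of a cluster are not independent. Of 39 genes listed, 15 reached 10 CPM in any line, 8 of the Hoxb cluster and 7 of the Hoxd cluster. The listed Hoxa and Hoxc genes stayed under 10 CPM in all lines. KP5 had the lowest level of all 15, and 13 of the 15 had an 8-fold range, against 9.23% of all genes tested. The median difference of KP5 over the 15 was -4.12 on the log2(CPM + 1) scale.

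Within the Hoxd cluster the order was KP1, KP3, KP2 and KP5 for 6 of 7 genes. Hoxd8 (chromosome 2, 74704615 to 74707933) had 275 CPM in KP1, 169.6 CPM in KP3, 124 CPM in KP2 and 0.165 CPM in KP5, and it was the gene farthest from the nearest line among the low genes of KP5. Hoxd11 was at 120.1, 52.4, 18.7 and 0.0198 CPM in that order, and Hoxd10 at 62.1, 27.1, 12.5 and 0.0329 CPM. Hoxd9 and Hoxd13 were under 1 CPM in KP2 too. Hoxd9 was set apart high in KP1, with 62.2 CPM against 3.01 CPM in KP3, 0.919 CPM in KP2 and 0 in KP5. Hoxd13 had 120.2 CPM in KP1 and 78.3 CPM in KP3, but 0.495 CPM in KP2 and 0.0329 CPM in KP5. Hoxd1, the exception in order, was at 16.9 CPM in KP3, 7.36 CPM in KP1, 2.17 CPM in KP2 and 0 in KP5.

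The Hoxb genes ran in another order, with KP2 highest for all 8, against 2942 of all 10968 genes tested. Hoxb9 had 394 CPM in KP2, 244 CPM in KP3, 151 CPM in KP1 and 9.16 CPM in KP5. Hoxb7 was at 54.7, 33.1 and 31.3 CPM in KP2, KP3 and KP1 and at 0.955 CPM in KP5. Hoxb2 and Hoxb6 also met the rule for KP5, with 0.296 and 4.81 CPM there, and together with Hoxb7, Hoxb9, Hoxd4, Hoxd8, Hoxd10 and Hoxd11 they make 8 low genes of KP5 among the 15 Hox genes tested, against 0.529% of all genes tested. The low level in KP5 was uneven: Hoxb3 kept 19.2 CPM against 23.7, 50.6 and 32.7 CPM in KP1, KP2 and KP3, Hoxb5 kept 16.0 CPM and Hoxb8 12.2 CPM.

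**Figure D3:**
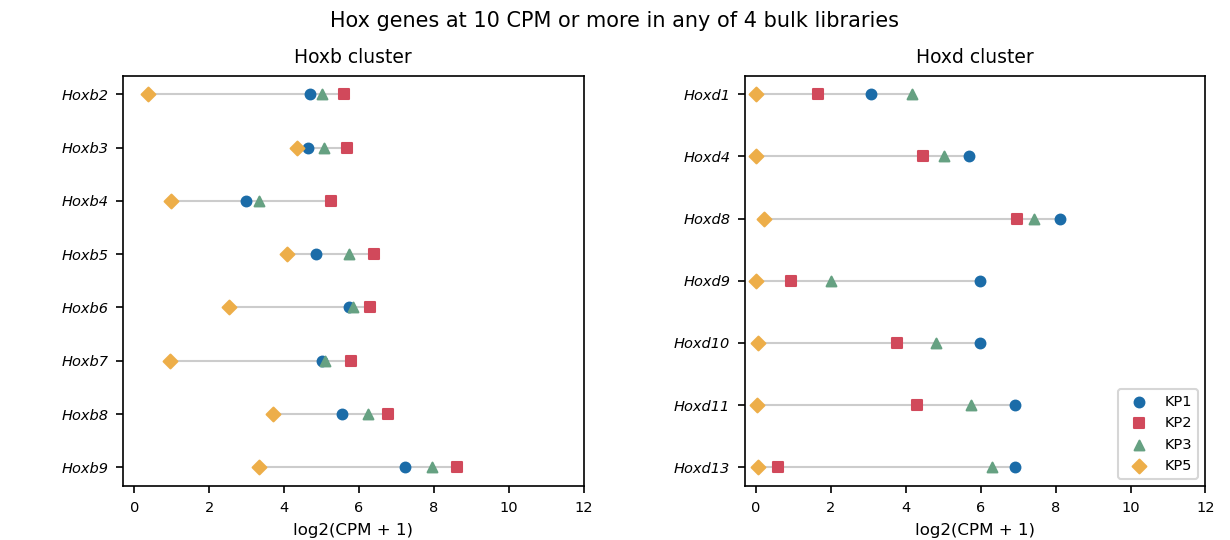
Levels as log2(CPM + 1) (horizontal axis) of the 8 Hoxb and 7 Hoxd genes that reached 10 CPM in any line, in cluster order from top to bottom, with 1 symbol per bulk library. KP5 is leftmost in every row, KP2 is rightmost for the Hoxb genes and KP1 for 6 of 7 Hoxd genes.

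Of 36 listed transcription factors, 26 reached 10 CPM in any line. Insm1, a zinc finger factor of neuroendocrine cells, ran from 448 CPM in KP3 to 855 CPM in KP2. Nkx2-1, the lung lineage factor, ran from 161 CPM in KP2 to 329 CPM in KP3, and Nfib, a chromatin-opening factor, from 1607 CPM in KP3 to 2439 CPM in KP5. Prox1 had 673, 364, 427 and 178 CPM in KP1, KP2, KP3 and KP5.

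Among the 26 factors, 10 (38.5%) had an 8-fold range, where 9.23% of all genes did. Neurod1, which marks a neuronal variant of the disease, was at 14.2 and 14.7 CPM in KP1 and KP3 and at 0.165 and 0.329 CPM in KP2 and KP5. Isl1, a factor of motor neurons and islet cells, had 67.9 and 36.9 CPM in KP1 and KP3, 2.24 CPM in KP2 and 0 in KP5. Pou4f1, a sensory neuron factor, was the mirror image, with 45.7 and 38.6 CPM in KP2 and KP5 and 1.85 and 2.85 CPM in KP1 and KP3. Neurod4 was set apart low in KP5, with 0.0659 CPM there and 33.8, 61.5 and 14.0 CPM in KP1, KP2 and KP3. So was Etv1, an ETS factor, at 0 in KP5 and 13.5, 11.9 and 75.8 CPM elsewhere. Neurog3, the endocrine progenitor factor of gut and pancreas, was highest in KP5, with 41.6 CPM there against 6.21 CPM in KP3, 0.569 CPM in KP2 and 0 in KP1. Pou3f2 was the only gene with KP2 and KP3 (30.2 and 23.8 CPM) both 8-fold above KP1 and KP5 (1.85 and 0.132 CPM), 0.00912% of genes tested. Factors that mark other subtypes were low throughout: Pou2f3, of tuft cells, reached at most 0.791 CPM and Yap1, of the Hippo pathway, at most 0.994 CPM.

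Of 28 listed granin, peptide and amine genes, 17 reached 10 CPM and 4 (23.5%) had an 8-fold range, against 9.23% of all genes tested. Chga, the vesicle protein chromogranin A, had 1251 and 1224 CPM in KP1 and KP3 and 344 and 435 CPM in KP2 and KP5. Ddc, the decarboxylase of amine synthesis, ran from 526 CPM in KP1 to 742 CPM in KP5. Tph1, which starts serotonin synthesis, had 117 CPM in KP3, 30.5 CPM in KP1, 7.48 CPM in KP5 and 6.10 CPM in KP2. Calca, the gene of calcitonin and its related peptide, was highest in KP1 at 218 CPM, with 38.1, 95.4 and 62.7 CPM in KP2, KP3 and KP5. Grp, the bombesin-like peptide of lung neuroendocrine cells, was set apart high in KP5, with 19.6 CPM against at most 0.608 CPM.

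Of 23 synaptic vesicle genes at 10 CPM, 5 (21.7%) had an 8-fold range, against 9.23% of all genes tested, while Syp, a vesicle membrane protein, stayed within 70.7 to 91.5 CPM. Sv2b, a vesicle glycoprotein, was set apart high in KP2, at 45.8 CPM against 2.32, 3.73 and 4.64 CPM in KP1, KP3 and KP5. Of 22 neuronal adhesion and cytoskeleton genes, 5 (22.7%) had such a range. The neurofilament genes Nefl and Nefm were nearly absent from KP5. Nefl had 204, 389 and 84.3 CPM in KP1, KP2 and KP3 and 0 in KP5, and Nefm 151, 129 and 27.8 CPM and 0.0659 CPM. These genes overlap in the annotation, so their reads may be shared between them. Chl1, an adhesion molecule, was the reverse, with 25.9 CPM in KP5 and at most 1.01 CPM elsewhere.

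No gene of the Myc family met the rule for any line. These factors drive growth, and Max, Mxd and Mnt proteins are their partners and opponents. Of 13 genes listed, 12 reached 10 CPM, none had an 8-fold range and 11 stayed within a 2-fold range. With 9.23% of all genes tested at 8-fold, a count of 0 among 12 is near the background. Mycl (chromosome 4, 122995652 to 123002485) had 8022, 7510.4, 7706 and 9111 CPM in KP1, KP2, KP3 and KP5. Per kb of exon, its level exceeded that of at least 99.9% of genes in each line. Mycn, the gene outside the 2-fold range, had 25.6 CPM in KP2, 13.0 CPM in KP1, 11.3 CPM in KP5 and 6.63 CPM in KP3. Myc itself stayed below 10 CPM, at 6.26, 0.754, 2.30 and 4.91 CPM in KP1, KP2, KP3 and KP5.

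**Figure D4:**
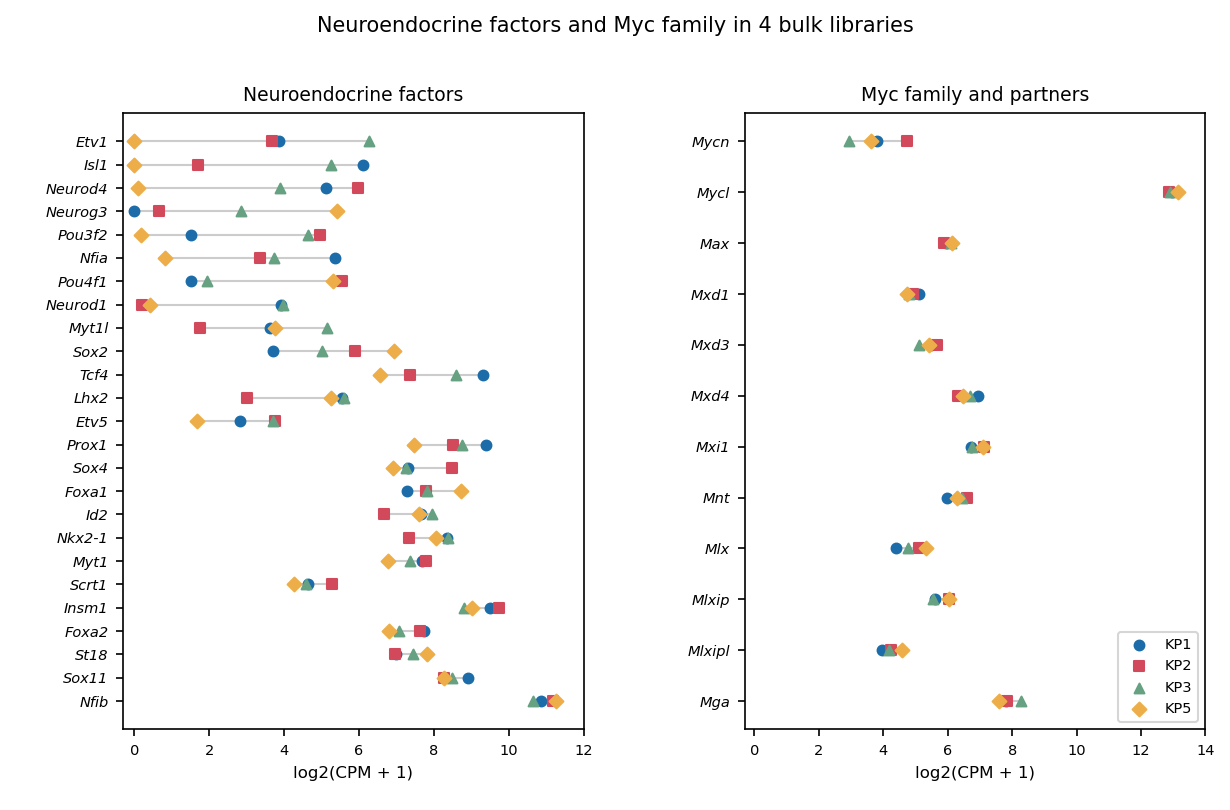
Levels as log2(CPM + 1) (horizontal axis) of 25 of the 26 neuroendocrine transcription factors, ordered by their range, and of 12 genes of the Myc family and its partners, with 1 symbol per bulk library. The symbols of Mycl overlap at the right edge, while Etv1, Isl1 and Neurod4 have their lowest values in KP5.

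A run of genes on chromosome 4, near but not next to Mycl, divided the lines. The run of 18 genes at 10 CPM from Ppt1 to Rragc (chromosome 4, 122836242 to 123936997), which contains Mycl, had a median of 191 CPM per kb of exon in KP1, 110.4 in KP2, 116 in KP3 and 175 in KP5. The median over all genes tested was 9.71, 9.35, 9.16 and 9.24 CPM per kb, and each median of the run exceeded the level of 96.6% to 98.6% of genes. Another run, of 26 genes, lies towards the start of the chromosome, from Slc2a1 to Rlf (119108711 to 121215084). The stretch between Rlf and Ppt1 is in neither run and was not summarised. In the Slc2a1 run the medians were 106 CPM per kb in KP1 and 51.9 in KP3, but 9.97 in KP2 and 6.23 in KP5. There the median exceeded 97.1% of genes in KP1, 93.5% in KP3, 52.1% in KP2 and 37.0% in KP5. In 25 of the 26 genes both KP1 and KP3 lay above both KP2 and KP5, Col9a2 being the exception, and the median difference between the means of these couples was 3.34 on the log2(CPM + 1) scale. Only 4 of the 26 met the 8-fold step for both lines against both others. The run with Mycl gave -0.22, with KP1 and KP3 above in 3 of 18 genes and 0 at the 8-fold step. The genes within 2 Mb before Slc2a1 and after Rragc gave 0.01 (19 genes) and 0.36 (12 genes). Beside Mycl, Mfsd2a, a lipid transporter gene, was set apart high in KP5, at 445 CPM against 49.9, 30.5 and 13.4 CPM in KP1, KP2 and KP3. Bmp8b, a ligand gene that overlaps Ppie and Oxct2b, was set apart low in KP2, at 18.6 CPM against 201, 290.2 and 159.6 CPM in KP1, KP3 and KP5.

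Examples from the Slc2a1 run, chosen after their values were seen, are as follows. Ybx1, which encodes an RNA-binding protein, had 11844 and 7146 CPM in KP1 and KP3 and 1442 and 837 CPM in KP2 and KP5. Ctps, a CTP synthase gene, had 2911 and 1789 CPM against 283 and 215 CPM. The next examples are among the 4 that met the 8-fold step. Rims3, a presynaptic protein gene, had 3785 and 1515 CPM against 146 and 47.3 CPM. Foxj3, a forkhead factor, was at 3339 and 2043 CPM against 216 and 111 CPM, and Zmpste24, a protease that matures lamin A, at 1837 and 926 CPM against 64.9 and 65.0 CPM. The edges of these runs were read from the levels, so the contrast between them is a description. DNA copy number was not measured.

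**Figure D5:**
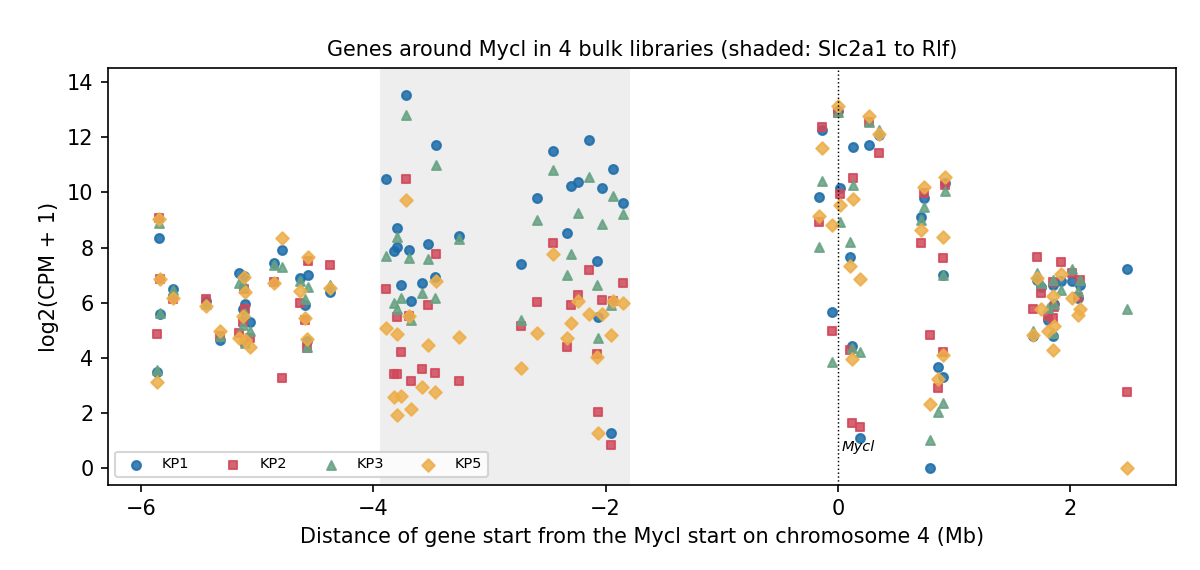
Levels as log2(CPM + 1) (vertical axis) of genes at 10 CPM in any line against the distance of their start from that of Mycl on chromosome 4 in Mb, with 1 symbol per bulk library. The stretch between Rlf and Ppt1 is not drawn. In the shaded run from Slc2a1 to Rlf, KP1 and KP3 lie above KP2 and KP5 in 25 of 26 genes, while at Mycl the 4 symbols coincide.

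The division of KP1 and KP3 from KP2 and KP5 reached beyond chromosome 4. Both KP1 and KP3 lay 8-fold above both KP2 and KP5 in 68 genes (0.62%), of which 15 are on chromosome 4, where 705 of the 10968 genes tested lie. The converse held for 16 genes (0.146%), of which 7 are on chromosome X, where 378 of the genes tested lie. No gene had KP1 and KP2 both 8-fold above KP3 and KP5, or KP1 and KP5 above KP2 and KP3. These groupings were made after the levels were seen. Among the 68 were the developmental factors Pax6 (69.3 and 70.3 CPM in KP1 and KP3, 2.22 and 3.10 CPM in KP2 and KP5) and Gata4 (24.3 and 16.2 CPM, 0.872 and 0.264 CPM). The neurotrophin receptor Ntrk2 had 179 and 196 CPM against 10.2 and 2.73 CPM. Wif1, a secreted Wnt inhibitor, had 21.9 and 37.3 CPM against 0.0707 and 0.198 CPM. Among the 16, Igfbp2, which binds insulin-like growth factors, had 178 and 224 CPM in KP2 and KP5 and 1.68 and 16.7 CPM in KP1 and KP3. Rps6ka6, a ribosomal S6 kinase gene on chromosome X, had 78.2 and 97.6 CPM against 0.694 and 4.57 CPM.

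Tap1 and Tap2, which encode the peptide transporter of MHC class I, followed this division, whereas H2-K1 and B2m did not. Tap1 had 15.1 and 13.3 CPM in KP1 and KP3 and 0.236 and 0.276 CPM in KP2 and KP5, and Tap2 21.9 and 15.0 CPM against 0.513 and 0.0988 CPM. The heavy chain gene H2-K1 was low in KP2 alone by the rule, with 3.41 CPM against 51.0, 60.7 and 46.6 CPM in KP1, KP3 and KP5. H2-K1 reads may be shared with related MHC genes. B2m, the light chain, followed neither order, at 10.4, 14.2, 8.38 and 5.96 CPM in KP1, KP2, KP3 and KP5. Of 12 genes of the MHC class I and interferon list at 10 CPM, 4 (33.3%) had an 8-fold range, against 9.23% of all genes tested.

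KP1 was set apart by Wnt4, Des, Igf2 and 12 further high genes. Wnt4 (chromosome 4, 137277489 to 137299726), a secreted Wnt ligand, had 168 CPM in KP1 and 2.16, 2.20 and 1.35 CPM in KP2, KP3 and KP5. Des, the muscle intermediate filament desmin, had 149 CPM against 0.942, 2.27 and 1.12 CPM. Igf2, an imprinted growth factor, had 581 CPM in KP1, 37.3 CPM in KP3, 17.6 CPM in KP2 and 0.0988 CPM in KP5, so that it was both a high gene of KP1 and a low gene of KP5. Fst, the activin antagonist follistatin, had 52.0 CPM in KP1, 3.17 CPM in KP3, 0.448 CPM in KP2 and 0 in KP5, and Galr1, a galanin receptor, 62.7 CPM against 0.0659 to 4.45 CPM. The Y-linked genes Ddx3y (59.2, 4.24, 0 and 0 CPM in KP1, KP2, KP3 and KP5) and Eif2s3y (42.7, 2.57, 0.0264 and 0 CPM) were high in KP1 too. The Y-linked gene Kdm5d was also highest in KP1, at 70.6 CPM, but had 27.3, 29.6 and 35.1 CPM in KP2, KP3 and KP5. The assignment of Kdm5d reads was not tested. Low genes of KP1 included Ugt8a, a myelin lipid enzyme, with 0.0579 CPM against 30.9, 17.2 and 18.1 CPM. Fgf13 was at 4.04 CPM against 119.9, 58.1 and 70.7 CPM, Scml4 at 3.02 CPM against 79.9, 37.5 and 42.3 CPM, and Col9a3, a cartilage collagen, at 0.347 CPM against 229.9, 13.4 and 51.9 CPM. Cstf2t, which lies within Prkg1, had 4.00 CPM against 58.7 to 80.2 CPM.

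KP1 spheroids were also profiled as 10-cell libraries, made by another protocol, so values are given side by side without a test. Of the 15 high genes of KP1, 11 had a mean of at least 10 CPM over the 28 libraries of 10 spheroid cells and 13 over the 20 pooled controls. Of its 9 low genes, the counts were 1 and 0, and of the 99 high genes of KP5 they were 4 and 3. Other sets are also high in bulk KP1. In the same order, the counts were 16 and 17 of the 34 low genes of KP2, 23 and 26 of the 58 low genes of KP5, 31 and 30 of the 68 genes high in KP1 and KP3, and 0 and 2 of the 2 low genes of KP3. Wnt4 had a median of 13.2 CPM over the 28 libraries, from 0.513 to 190 CPM, and Des a median of 55.3 CPM. Cdh1 was at 0 in all 28. Mycl had a median of 43.2 CPM, against 8022 CPM in bulk. Across genes, the mean of the 10-cell libraries had a Spearman correlation of 0.523 with bulk KP1, and of 0.537, 0.501 and 0.509 with bulk KP2, KP3 and KP5, so it did not single out the line.

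KP2 was set apart by Eda2r, Fgfrl1, Sox8 and Sv2b among its high genes and by H2-K1, Ocln, Cldn3 and Erbb3 among its low genes. Eda2r, a receptor of the tumour necrosis factor family, had 105 CPM in KP2 and 1.16, 4.33 and 2.83 CPM in KP1, KP3 and KP5. Fgfrl1, an FGF receptor without a kinase domain, had 83.2 CPM against 1.62, 2.93 and 3.36 CPM. The glial factor Sox8 stood at 31.0 CPM against 0.637, 0.766 and 0.329 CPM, the scaffold gene Cnksr2 at 39.2 CPM against 0.347, 1.35 and 0.593 CPM, and Igfbpl1 at 34.0 CPM against 0.405, 0.502 and 0.659 CPM. The top of the KP2 list by distance was Hist1h2ao (135 CPM against at most 0.113 CPM), a histone gene with near-identical copies, followed by Tpm3-rs7 and Gm10093, which also resemble other genes, so reads may have been assigned between copies. Hist1h2ah, another histone copy, was at 4.06 CPM in KP2 and 286, 162 and 99.9 CPM elsewhere. Low genes of KP2 included Hdgfl3 (2.26 CPM against 199, 224 and 88.8 CPM in KP1, KP3 and KP5), which overlaps Tm6sf1, and Mical1, an actin oxidase (0.302 CPM against 41.7, 32.5 and 41.1 CPM), which overlaps Smpd2. Unc13b, which primes synaptic vesicles, was at 2.99 CPM against 82.9, 79.3 and 92.1 CPM. Erbb3, a receptor of the EGF receptor family, was at 1.48 CPM against 22.4, 27.0 and 45.7 CPM.

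KP3 was distinguished by opposite levels of the glutamate receptor genes Gria1 and Gria2. Gria1, a glutamate receptor subunit, had 32.7 CPM in KP3, 0.165 CPM in KP2 and 0 in KP1 and KP5. Gria2, the subunit that makes such channels impermeable to calcium, was the reverse, with 0.555 CPM in KP3 against 47.1, 49.5 and 73.5 CPM in KP1, KP2 and KP5. Gria2 and Cdh2 were the only low genes of KP3. Agt, the angiotensin precursor, had 82.6 CPM against 0.579, 0.636 and 0.362 CPM, and Cilp, a cartilage matrix protein, 33.9 CPM against at most 0.0942 CPM. The forkhead gene Foxr2 had 37.2 CPM against 0, 0.259 and 0.395 CPM, and Pde11a, a cyclic nucleotide phosphodiesterase, 20.6 CPM against at most 0.347 CPM. Akap13, an anchor of protein kinase A, had 30.8 CPM against at most 0.139 CPM, but its 0.0104 CPM in bulk KP1 stood beside a mean of 11.8 CPM over the 28 libraries of 10 KP1 spheroid cells, 24 of them above 0. The assignment of its reads was not tested. The gene farthest from the other lines was 1700019N19Rik, with 143 CPM in KP3, 0.0579 CPM in KP1 and 0 in KP2 and KP5, and it overlaps Gm17150. Gm28042, which overlaps Pla2g4b and Jmjd7, had 238 CPM against 1.81, 13.3 and 6.30 CPM.

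Outside the epithelial list, KP5 was set apart by Prom2, Cdcp1, Ap1m2 and other genes. Prom2, of membrane protrusions of epithelial cells, had 176 CPM in KP5 and 0.174, 1.18 and 1.14 CPM in KP1, KP2 and KP3. Cdcp1, a surface glycoprotein, had 93.5 CPM against at most 0.33 CPM, and Ap1m2, the epithelial clathrin adaptor subunit, 96.5 CPM against at most 0.825 CPM. Tmem54 (54.2 CPM against at most 0.0942 CPM, overlapping Hpca) and the sialyltransferase gene St6gal2 (53 CPM against at most 0.0942 CPM) came next. Col18a1, a basement membrane collagen that overlaps Slc19a1, had 122 CPM against 0.383, 1.72 and 1.13 CPM. Vwf, the von Willebrand factor, was at 293 CPM against 4.04, 9.17 and 6.90 CPM, while the defining endothelial markers stayed low in KP5, Pecam1 at 2.81 CPM and Cdh5 at 0. The 58 low genes of KP5 included, outside the lists, Epb41l4a (0.264 CPM against 56.4, 53.9 and 62.0 CPM), the lipoprotein and reelin receptor Vldlr (0 against 112, 39.2 and 99.7 CPM) and the mesenchymal cadherin Cdh11 (0.0596 CPM against 185, 38.4 and 44.3 CPM). Pdgfra, a growth factor receptor, was at 1.28 CPM in KP5 and at 314, 52.9 and 142 CPM in KP1, KP2 and KP3.

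The genes named in the genotypes did not set a line apart. Rb1 ran from 143 to 193 CPM and Trp53 from 6.67 CPM in KP5 to 19.7 CPM in KP2, and a count over a whole gene does not check a deletion of some of its exons. Ptch1 had 141 CPM in KP2, the Ptch1+/lacz line, and 158, 203 and 58.3 CPM in KP1, KP3 and KP5. Axin2 had 33.7 CPM in KP3, the Axin2+/lacz line, and 24.7, 41.8 and 39.7 CPM in KP1, KP2 and KP5. Against 9.23% of all genes tested, 3 of 11 Wnt genes at 10 CPM had an 8-fold range: Wif1, given above, Sox9 (21.2, 5.44, 44.6 and 0.725 CPM in KP1, KP2, KP3 and KP5) and Lef1 (58.9, 21.6, 63.7 and 4.92 CPM). Of 5 Hedgehog genes at 10 CPM, Gli3, a transcription factor of the pathway, had an 8-fold range, with 55.5 CPM in KP5, 21.5 CPM in KP2 and 3.82 and 6.29 CPM in KP1 and KP3. None of 16 Rb and p53 pathway genes had such a range. Of the remaining lists, an 8-fold range was found in 3 of 13 Notch and Yap genes, 7 of 15 growth factor and receptor genes, 4 of 10 collagen, laminin and integrin genes, 2 of 5 lung lineage genes and 3 of 4 Y-linked genes. With 9.23% of all genes at that range, the counts of 0 of 16 and 1 of 5 are near the background. Jag1, a Notch ligand, had 56.9 CPM in KP1, 10.6 CPM in KP3, 3.11 CPM in KP2 and 1.12 CPM in KP5. Kit, the stem cell factor receptor, had 226 and 228 CPM in KP1 and KP3 and 33.0 and 62.7 CPM in KP2 and KP5, short of that range.

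Of 23 cell cycle genes, all at 10 CPM in every line, KP2 was highest for 13 and KP3 lowest for 16. Over all 10968 genes tested, KP2 was highest for 2942 and KP3 lowest for 2547. An 8-fold range was found in 1 of them, against 9.23% of all genes tested, and 9 stayed within a 2-fold range, against 6763 of all 10968 genes. The gene with the 8-fold range, Ccnb1, the mitotic cyclin B1, had 331 and 350.3 CPM in KP2 and KP5 and 80.4 and 40.4 CPM in KP1 and KP3. Mki67, a marker of cycling cells, ran from 594 CPM in KP3 to 1299 CPM in KP5.

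Some neighbouring genes shifted together in 1 or more lines. For each gene, the log2(CPM + 1) of a line was set against the median of the other lines. The median of these differences was taken in 552 windows of 4 Mb with at least 5 genes tested, and a shift of 1 or more was counted. KP1 had 2 such windows upward, KP2 had 1 upward and 2 downward, KP3 had 1 upward and 5 downward, and KP5 had 2 of each. The largest was KP5 on chromosome 4 from 84 to 88 Mb, with 1.82 over 9 genes. Because each line is set against the others, the same window can be counted in more than 1 line. The 4 Mb from 100 Mb of chromosome 4 were shifted by 1.28 in KP1, by -1.36 in KP2 and by -1.35 in KP5. Those from 72 to 76 Mb were shifted by -1.11 in KP2 and by 1.06 in KP3. In KP3, the window from 4 to 8 Mb of chromosome 18, which holds Zeb1 and the motor protein gene Kif5b, was shifted by -1.02. None of its 13 genes lay above the median of the other lines there. Zeb1 was lower still in KP5, where that window was not shifted by this rule.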

How the data were processed

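RNA sequencing of 4 bulk spheroid libraries was taken from a table of expected counts per gene over all 199 libraries. The authors deposited these expected counts (read counts estimated per gene, not scaled between libraries) after processing that, per the submitters' processing notes, used RSEM and Bowtie2 with the builds GRCm38 and GRCh38.p12, named with no role or order. Coordinates are those of the deposited table. CPM was computed over the 31581 genes, without the 92 ERCC rows and without rounding. Levels were compared as log2(CPM + 1), which understates the fold of low genes. With 1 library per line there was no test. The rule for setting a line apart was tested on simulated data.

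Named genes are the 8 high and 5 low protein-coding genes farthest from the nearest line, list members that met the rule, genotype genes, Hox genes and Myc family. Other genes named were chosen after their values were seen. The members, the 18 gene lists and the 10 marker lists were chosen with earlier results of these data known. Of the listed genes, 2 are not reported here by name. Exon lengths came from GENCODE M21. Just inside and outside the 8-fold rule stood Sult2b1 (3.02) and Ano9 (3.00) for KP5 high genes and Pxn (3.05) and Gm12424 (2.89) for KP3 high genes. Alternatives were TMM and RLE scaling (edgeR 4.0.16, R 4.3.3), other pseudocounts, minimum levels, folds, references and window sizes, thinning to the depth of KP1, and the totals without Noct and Slc38a6. Python 3.11.15, numpy 2.4.6, pandas 2.3.3, scipy 1.17.1 and matplotlib 3.10.9 were used.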

Additional observations from a re-analysis of the deposited data

How the results depend on the processing

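With 1 library per line, what the data can show is limited by unknown spread between cultures, and below about 1 CPM by counting error. Leaving Noct and Slc38a6 out of the totals, an alternative chosen after the data were seen like those of the groupings and the pooled controls, moved no count by more than 1.5 times. Of 167 alternatives of the counts and correlations, 52 moved. A move was a change of more than 1.5 times for a count and of at least 0.05 for a correlation. The counts of high and low genes were 5 and 0 (KP1), 8 and 8 (KP2), 4 high (KP3) and 25 and 14 (KP5) with a pseudocount of 5 CPM. At 4-fold they were 39 and 14, 64 and 75, 50 and 9, and 179 and 120 for KP1, KP2, KP3 and KP5. At 16-fold they were 2 and 1, 10 and 8, 8 high, and 46 and 29. Against the median of the other lines in place of the nearest, they were 138 high (KP1), 80 and 75 (KP2), 153 and 8 (KP3), and 210 and 110 (KP5). KP5 had the most high and the most low genes in each of these counts. Epithelial genes set apart high in KP5 numbered 11 at 4-fold, 4 at 16-fold and 13 against the median, and Hox genes set apart low 2 with the pseudocount of 5 and 5 at 16-fold. The groupings of KP1 with KP3, KP2 with KP5 and KP3 with KP5 gave 22, 6 and 1 genes with the pseudocount of 5, 159, 37 and 31 at 4-fold, and 22, 4 and 1 at 16-fold. Windows of 2 Mb gave 4, 6, 10 and 14 shifts in KP1, KP2, KP3 and KP5, windows of 8 Mb gave 2 in KP3 and 2 in KP5, and TMM scaling gave 1 in KP1 and 3 in KP3. The low genes of KP1 at 10 CPM in the pooled controls numbered 0. Over the 49 genes named as farthest from the other lines, 19 of 196 alternatives, all with the pseudocount of 5, fell under the 8-fold step. The cause of these moves is the setting itself, by construction, for folds, pseudocounts, references and window sizes, and was not tested for the scaling. No paired analysis was possible because no result comes from a test and each line has 1 library.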
